A study of Mus musculus with 2 samples.

Results

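The mRNAs of Prm1, Prm3, Tnp1 and Tnp2 were followed through mouse spermatogenesis, cell by cell, to read when each first appeared and in which order they came. The members were the rows of the count matrices whose symbol was Prm1, Prm3, Tnp1 or Tnp2, 1 row each, which makes 4 of 32285 genes. They were described along germ cell stages that were set by other marker genes, and against their level in somatic cells of the testis. The data are single-cell RNA sequencing of whole mouse testis in 2 libraries, 1 from a Prm2 +/- (heterozygous) and 1 from a Prm2 -/- (knockout) animal or group of animals. The labels give no age, strain or number of animals, and they do not say how the knockout allele was made. Both libraries came from tubules opened with collagenase and washed to remove Leydig cells, and both carry a lesion of Prm2, since no Prm2 +/+ library is among the samples. With 1 library per genotype no difference between genotypes could be tested. Intervals are 95% intervals that cover counting error only.

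During the last phase of spermatogenesis the haploid spermatid replaces nearly all its histones, first by the transition proteins TNP1 and TNP2 and then by the protamines PRM1 and PRM2, small arginine-rich proteins that pack the sperm genome. Their mRNAs are made in round spermatids, while the genome is still open to transcription, and are stored with bound proteins until the elongating spermatid translates them. PRM3 is encoded in the same gene cluster but is an acidic protein, described as cytoplasmic. Transcription of this group is known to depend on CREM, a factor that binds cyclic AMP response elements.

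Prm1 (ENSMUSG00000022501), Prm3 (ENSMUSG00000050058) and Tnp2 (ENSMUSG00000043050) lie with Prm2 in a cluster of 17.9 kb on chromosome 16, all on the minus strand. In the GENCODE M21 annotation of mm10, Prm1 covers chr16:10796326-10805839, Prm3 covers chr16:10790505-10790914 and Tnp2 covers chr16:10787936-10788660. The Prm1 span ends 191 bases from that of Prm2, Prm3 lies 465 bases from Prm2 on its other side, and Tnp2 lies 2719 bases from it. The spans of Prm1 (9514 bases) and Prm2 (4755 bases) each cover 2 annotated transcripts, so single transcripts can lie further apart. Tnp1 (ENSMUSG00000026182) is alone on chromosome 1, at chr1:73015074-73015909 on the minus strand. The 250 bases before the start of each gene are shown because the 4 genes share an expression pattern while 1 of them sits on another chromosome. They are from RefSeq (GRCm38.p6), which held all 4 genes, and are written 5′ to 3′ on the gene's strand. The start meant here is that of RefSeq, which can differ from the GENCODE span. The Prm1 window lies inside the Prm1 span given above, and the Tnp1 and Tnp2 windows overlap the ends of theirs by a few bases. Capitals mark matches to TGANGTCA (the cyclic AMP response element TGACGTCA with 1 base left free, searched on both strands) and to TATAA (both strands).
Prm3, chr16:10790915-10791164: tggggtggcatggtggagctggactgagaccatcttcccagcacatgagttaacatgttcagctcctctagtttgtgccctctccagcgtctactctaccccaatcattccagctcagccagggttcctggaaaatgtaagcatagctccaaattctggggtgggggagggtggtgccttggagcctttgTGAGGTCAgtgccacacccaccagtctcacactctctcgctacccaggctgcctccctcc
Tnp1, chr1:73015900-73016149: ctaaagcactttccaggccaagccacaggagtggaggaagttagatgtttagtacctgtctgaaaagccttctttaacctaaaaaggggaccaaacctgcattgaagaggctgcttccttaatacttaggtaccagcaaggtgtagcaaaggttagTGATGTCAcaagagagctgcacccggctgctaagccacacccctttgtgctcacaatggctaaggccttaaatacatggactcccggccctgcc
Tnp2, chr16:10788656-10788905: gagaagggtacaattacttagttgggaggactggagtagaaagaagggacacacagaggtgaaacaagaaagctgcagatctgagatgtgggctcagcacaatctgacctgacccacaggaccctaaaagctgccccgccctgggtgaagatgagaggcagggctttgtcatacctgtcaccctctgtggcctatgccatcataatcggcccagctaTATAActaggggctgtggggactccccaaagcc
Prm1, chr16:10796824-10797073: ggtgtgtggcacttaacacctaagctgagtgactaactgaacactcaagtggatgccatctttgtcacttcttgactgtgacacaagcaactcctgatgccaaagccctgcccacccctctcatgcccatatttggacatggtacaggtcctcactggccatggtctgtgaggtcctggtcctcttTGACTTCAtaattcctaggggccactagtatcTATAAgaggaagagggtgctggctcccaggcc
Prm3, Tnp1 and Prm1 each held 1 match to TGANGTCA, as TGAGGTCA, TGATGTCA and TGACTTCA. These matches began 60, 94 and 64 bases before the start. Among 32851 RefSeq promoters of this length, 7.49% held the motif on either strand and 1.55% held the full TGACGTCA, which none of the 4 did. A TATAA began 33 bases before the start of Tnp2 and 32 bases before that of Prm1, and 22.8% of the promoters held one. No TATAA lay in the windows of Prm3 and Tnp1.

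The heterozygous library held 15210 barcodes and 71364845 UMIs (unique molecular identifiers, each 1 counted mRNA molecule), and the knockout library 22885 barcodes and 123588822 UMIs. Prm2 itself gave 874436 UMIs in the heterozygous library and 799 in the knockout, in the direction the genotype labels give. The libraries shared 88 cell barcodes. After filters and removal of called doublets (3.07% of heterozygous and 15.7% of knockout cells), 14576 heterozygous and 18963 knockout cells were left. Every kept barcode is called a cell here. The knockout library kept more of them than the number of cells that the sample records give as loaded, so some may not be whole cells. How many was not tested. Clusters built without the protamine and transition protein genes were named from markers as Sertoli-, Leydig-, macrophage-, interstitial stromal- or lymphoid-like (1758 and 1645 somatic cells in all), and as spermatogonia-, preleptotene-to-zygotene-, late spermatocyte- and spermatid-like. No cluster was named as peritubular myoid or endothelial cells. The 3404 heterozygous and 879 knockout cells in clusters without a clear name held the members at or near the somatic level, with a median of 24 and 10 Prm1 UMIs. Spermatids with at least 2000 UMIs (3854 and 7152 cells) were ordered by the log2 ratio of late to early spermatid marker UMIs and cut into 10 bins with the same limits in both libraries, bin 1 being the earliest. A bin held 200 to 620 heterozygous and 284 to 1058 knockout cells.

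All 4 mRNAs were found in every somatic class at a low, even level. The median somatic cell of the heterozygous library held 24 Prm1, 12 Tnp2, 9 Tnp1 and 2 Prm3 UMIs. The knockout median was 9 Prm1, 5 Tnp2, 4 Tnp1 and 1 Prm3 UMIs. The classes differed little from each other by their medians, which ran from 20 to 27 Prm1 UMIs in the heterozygous and from 6 to 10 in the knockout library. Somatic cells are not known to transcribe these genes, and in droplet data free RNA from other cells enters every droplet, so this level was read as background. A Prm3 UMI was present in 79.9% of heterozygous and 71.8% of knockout Sertoli-like cells, and the share of cells with a UMI was therefore not used. Summed over all somatic cells of the heterozygous library, the mix of the 4 mRNAs was 50.3% Prm1, 27.1% Tnp2, 19.6% Tnp1 and 3.12% Prm3. It was close to that of late spermatids. A minority of somatic barcodes held far more: 44 of 1310 heterozygous and 164 of 1112 knockout Sertoli-like cells had over 10 times the somatic median of Tnp1. The knockout Sertoli-like mean was 28.7 Tnp1 UMIs per cell beside a median of 4. The part of such barcodes in the somatic means and in the summed mix was not tested.

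Germ cells before the spermatid stage stood near the somatic level. Spermatogonia-like cells had a median of 25 Prm1 and 9 Tnp1 UMIs when heterozygous and 9 and 4 when knockout, and preleptotene-to-zygotene-like cells 23 and 8 against 9 and 3. Late spermatocyte-like cells, which span pachytene to the meiotic divisions, of the heterozygous library had medians of 29 Prm1, 14 Tnp2, 10 Tnp1 and 2 Prm3 UMIs, and those of the knockout 9, 5, 4 and 1. No member was 2-fold over the highest somatic class in any of these stages in either library. In late spermatocyte-like cells of the knockout library Prm3 made up 6.55% (6.42 to 6.67) of the UMIs of the 4 genes, against 3.59% (3.50 to 3.67) in its somatic cells. The same share was 3.88% (3.80 to 3.96) against 3.12% (3.04 to 3.21) in the heterozygous library. Earlier germ cells of the knockout library were also over its somatic share, with 5.32% in spermatogonia-like and 5.27% in preleptotene-to-zygotene-like cells. Those of the heterozygous library held 3.58% and 3.16%. The somatic shares are sums that include the somatic barcodes rich in these mRNAs.

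In UMIs per cell, Prm3 was the first of the 4 to stand above the somatic level by the 2-fold rule given further on. In the heterozygous library it stood at 5.83 UMIs per cell in bin 1 (5.50 to 6.17), then 7.81, 11.4, 17.3, 26.3, 28.4, 30.2, 34.8, 35.8 and 37.7 in bins 2 to 10. Knockout cells gave 8.19 in bin 1 (8.02 to 8.36), then 12.4, 15.7, 19.2, 19.4, 21.8, 24.1, 24.9, 25.9 and 27.0. Its climb was shallow and long: bin 10 was 6.47-fold over bin 1 in the heterozygous and 3.30-fold in the knockout library. Prm3 was already 2.92-fold over the somatic median in bin 1 of the heterozygous library and 8.19-fold in the knockout, as a mean over somatic medians of 2 and 1 UMIs. Bin 1 cells were deeper than Sertoli-like cells, with medians of 7572 against 971 total UMIs (heterozygous) and 7058 against 1738 (knockout). On the CPM scale, where UMIs are taken per total of the stage, Prm3 in bin 1 was under Sertoli-like cells, at 751 against 1898 CPM and 890.1 against 1820.0 CPM. It also stayed the least abundant, with a 10th percentile of 19 UMIs in bin 10 of the heterozygous library, above the 90th percentile of 5 in somatic cells. In the knockout library the same percentiles were 11 and 12, so there the bin 10 value was not above the somatic one.

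Tnp1, the first transition protein, behaved otherwise. In the heterozygous library it stayed near background with 13.1, 15.6 and 19.1 UMIs per cell in bins 1 to 3, then stood at 38.8 in bin 4, 133 in bin 5 and 192 in bin 6. Bins 7 to 10 held 195, 221, 242 and 230.5. The knockout library ran through 9.29, 16.3, 34.8, 69.6, 117, 139, 149, 155, 150.3 and 147. The steepest step of the heterozygous library was 3.42-fold from bin 4 to bin 5, and bin 10 stood 17.7-fold over bin 1. Knockout steps were spread over bins 2 to 5, and bin 10 stood 15.8-fold over bin 1. The bins mix spermatid clusters, some of which held all members near the somatic medians. Such clusters gave 121 and 204 ordered heterozygous cells, at median marker ratios of -0.09 and 0.13, and 133 and 279 ordered knockout cells. Their Tnp1 medians, shallower cells included, were 10 UMIs in the heterozygous and 4 in the knockout library. Their part in the course of the means was not tested.

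Tnp2, whose protein joins TNP1 on the DNA, followed Tnp1 closely at a higher count. The heterozygous library held 15.2 UMIs per cell in bin 1, 45.8 in bin 4, 182 in bin 5, a maximum of 329.7 in bin 9 and 295 in bin 10. The knockout library held 8.95 in bin 1, 96.9 in bin 4, 183 in bin 5, a maximum of 226 in bin 7 and 189 in bin 10. In both libraries Tnp2 was past its maximum in the last bin, at 89.3% of it in the heterozygous and 83.9% in the knockout library. The kit counts 3′ ends, so the counts do not scale with transcript length, but capture may differ between mRNAs.

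Prm1, which encodes the protamine that all mammals use, was the most abundant and the last of the 4 to reach 50% of its maximum. Its heterozygous series was 31.2, 36.0, 38.4 and 70.6 UMIs per cell in bins 1 to 4 and 283, 487, 531, 596, 649.5 and 677 in bins 5 to 10. The knockout series was 15.1, 21.9, 51.3 and 120.4, followed by 251, 317, 359, 378, 409 and 419. Bin 10 was 21.7-fold over bin 1 in the heterozygous and 27.8-fold in the knockout library. It held the highest level of all bins in both. Cells of the first 3 heterozygous bins overlapped the somatic cells but stood somewhat higher, with medians of 30, 33 and 35 Prm1 UMIs against 24. In bin 3 the 10th percentile was 23.8 against 16 in somatic cells, and the 90th was 55.2 against 43.3. In bin 10 the 10th percentile was 194 UMIs. By then the 4 mRNAs took up 18.6% of all UMIs of a heterozygous spermatid and 15.7% of those of a knockout one, against 0.841% and 0.451% in bin 1.

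**Figure D1:**
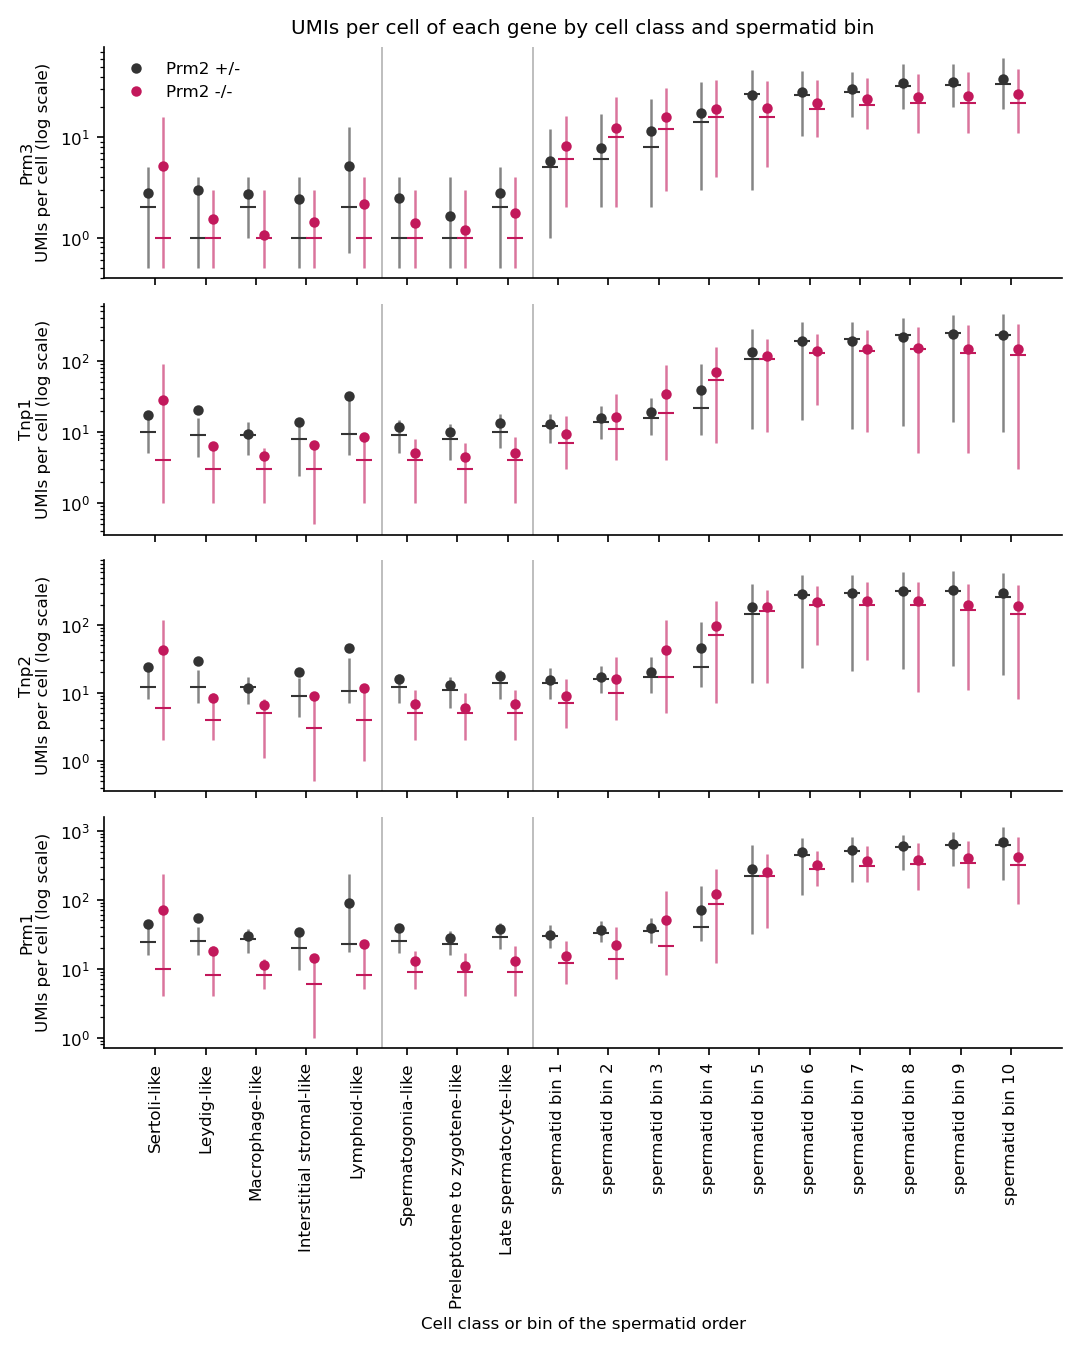
UMIs per cell (log axis) of Prm3, Tnp1, Tnp2 and Prm1 in the 5 somatic classes, 3 earlier germ cell stages and 10 spermatid bins of the Prm2 +/- (dark grey) and Prm2 -/- (magenta) library. Dots are means, short bars medians and vertical lines the 10th to 90th percentile of cells (0 drawn at 0.5). The Prm3 mean is above the highest somatic class mean from bin 1, though by little in the heterozygous library (5.83 against 5.21). The means of Tnp1, Tnp2 and Prm1 pass theirs in bins 3 to 5.

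The 2-fold rule by which Prm3 was called first above is a rule of size. A gene's onset was the first stage at which its UMIs per cell were at least 2-fold over the highest somatic class mean of its library, with the next stage over it too. That reference was the mean of 28 lymphoid-like cells in the heterozygous library (32.4 Tnp1 UMIs beside a median of 9.5) and of Sertoli-like cells in the knockout (28.7 Tnp1 and 71.8 Prm1 UMIs). With called doublets kept, the knockout Sertoli-like means were 7.35 and 19.7. For the heterozygous library Prm3 passed in bin 3 and Tnp1, Tnp2 and Prm1 in bin 5. Knockout Prm3 passed in bin 2, Tnp1 and Tnp2 in bin 4 and Prm1 in bin 5. Thus 4 of 4 members had their onset in a spermatid bin in each library, where 23.2% of 7475 heterozygous and 25.7% of 7365 knockout genes compared did so. The bin depends on the background chosen: against the median somatic cell the onsets were bin 1 for Prm3, 3 for Tnp1, 4 for Tnp2 and 4 for Prm1 in the heterozygous library, and bins 1, 1, 2 and 2 in the knockout. At 4-fold over the highest somatic class Prm3 was no longer alone in front, with onsets in bin 5 for Prm3 and Tnp1 and bin 6 for Tnp2 and Prm1 in the heterozygous library, and in the knockout library bin 5 for Tnp1 and Tnp2 and bin 6 for Prm3 and Prm1. On the CPM scale (UMIs scaled to the same total in every stage), no onset came before bin 6 and Prm3 was not ahead of the others.

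To compare timing without regard to height, the place along the order where each gene reached 50% of its highest bin was read off. In the heterozygous library Prm3 reached it at 36.7% of the order, Tnp2 at 43.7%, Tnp1 at 43.8% and Prm1 at 47.7%. Knockout Prm3 reached it at 18.3%, Tnp1 at 36.6%, Tnp2 at 36.9% and Prm1 at 41.8%. Prm1 was the last of the 4 in all 17 settings tried in each library, behind Tnp1 by 1.53 to 4.18 percentage points in the heterozygous and 1.80 to 8.06 in the knockout library. Prm3 came before Tnp1 in 16 of 17 settings for heterozygous and 15 of 17 for knockout spermatids. It did not when shallow spermatids down to 500 UMIs were ordered too (behind by 0.911 and 1.61 points) or, in the knockout, when cells were thinned to 2000 UMIs (a lead of -0.190). Prm3 came before Tnp2 in 15 and 14 of the 17 settings. Its lead over Tnp1 was small where depth was evened out. On the CPM scale it was 1.68 and 0.749 points, and in thinned heterozygous cells 0.696, against 7.03 and 18.3 in the main setting. Knockout Tnp2 came before Prm3 on the CPM scale, at 41.4% against 41.5%. Median total UMIs were 10989 in bin 5 and 5547 in bin 6 of the heterozygous library. Tnp1 and Tnp2 lay within 2.55 points of each other in every setting, with Tnp1 first in 6 of 17 heterozygous and 9 of 17 knockout settings, so their order was not resolved at 50% of the maximum. With the somatic median subtracted and 10% of the maximum as the mark, the order was Prm3, Tnp1, Tnp2, Prm1 in both libraries: Prm3 was over it in bin 1, and the others reached it at 31.7, 34.2 and 35.9% of the heterozygous and at 16.5, 19.1 and 24.6% of the knockout order.

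**Figure D2:**
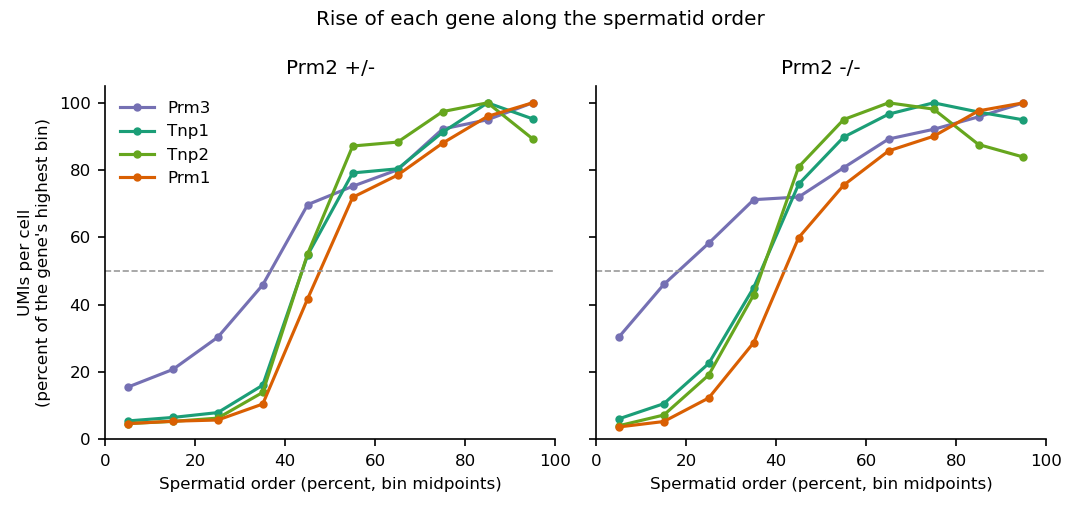
UMIs per cell of each gene as a percent of its own highest bin, against the midpoint of each spermatid bin on the marker-ratio order, in the Prm2 +/- (left) and Prm2 -/- (right) library. The dashed line is 50%; Prm3 crosses it first (36.7% and 18.3% of the order) and Prm1 last (47.7% and 41.8%).

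The mix of the 4 mRNAs differed along the order. It sums a cell's own and free RNA, and the part of each was not tested. Prm3 made up 8.93% of the UMIs of the 4 genes in bin 1 of the heterozygous library (8.45 to 9.43), 12.8% in bin 3 and 2.85% in bin 6. Knockout Prm3 made up 19.7% in bin 1 (19.3 to 20.1), 10.9% in bin 3 and 3.15% in bin 6. Prm1 showed the reverse course, with 47.7% in bin 1, a minimum of 40.9% in bin 4 and 54.6% in bin 10 of the heterozygous library. Its minimum in the knockout library was 32.8% in bin 2, before 53.6% in bin 10. Tnp1 had its largest share between them, 22.5% in heterozygous bin 4 and 24.4% in knockout bin 2. Tnp2 followed with 29.2% in heterozygous bin 5 and 32.0% in knockout bin 5. Within the spermatid bins the maxima of the shares came in the sequence Prm3, Tnp1, Tnp2, Prm1 in both libraries.

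**Figure D3:**
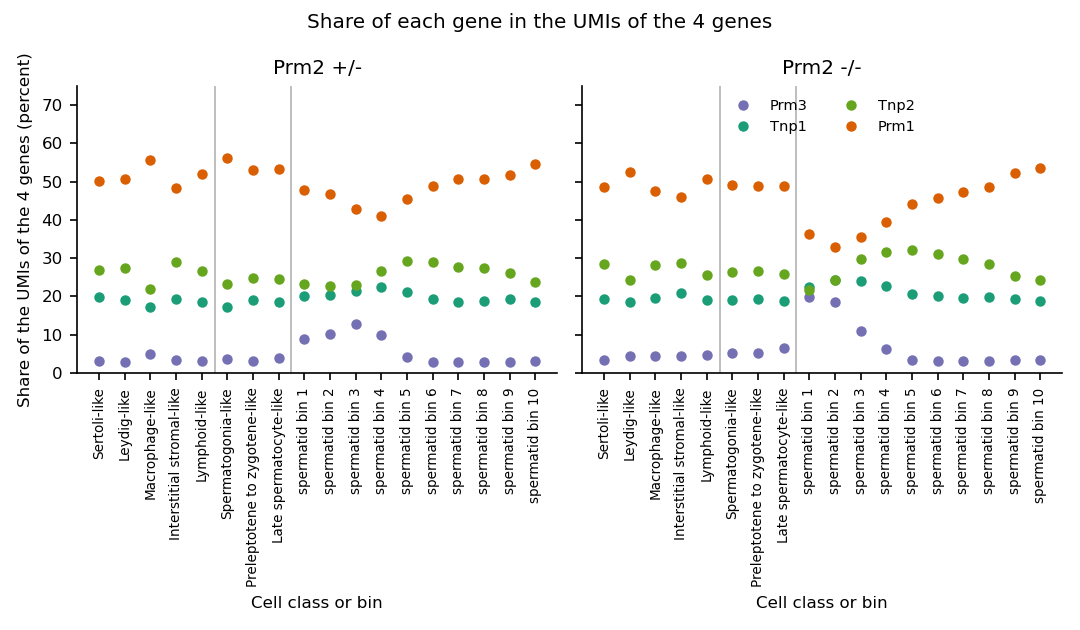
Share (percent) of Prm3, Tnp1, Tnp2 and Prm1 in the UMIs of the 4 genes, by cell class and spermatid bin, in the Prm2 +/- (left) and Prm2 -/- (right) library. Prm3 stays between 2.77% and 4.96% over the somatic classes, peaks at 12.8% in bin 3 and 19.7% in bin 1 of the 2 libraries, and Prm1 ends at 54.6% and 53.6%.

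The sequence was also read inside single cells, by counting spermatids over a threshold for 1 gene and not for another. With the 99th percentile of somatic cells as the threshold, which the somatic barcodes rich in these mRNAs set very high (269 Tnp1 UMIs in the heterozygous library), Prm3 led Tnp1 in 57.4% (53.3 to 61.3) of heterozygous cells that had only 1 of the pair and in 79.1% (74.0 to 83.6) of such knockout cells. At that threshold Tnp1 led Prm1 in 45.9% and 33.3%. The 95th somatic percentile gave 97.6% and 62.0% for Prm3 before Tnp1, and 57.1% for Prm3 before Tnp2 in the knockout library. A lower threshold, 10% of each gene's own median in bin 10, was used for Tnp1, Tnp2 and Prm1 only, because for Prm3 it came to 3.4 heterozygous and 2.2 knockout UMIs, under the somatic 90th percentiles of 5 and 12. The heterozygous thresholds of 23.4 Tnp1 and 62.9 Prm1 UMIs lay above the somatic 90th percentiles of 18 and 43.3. Those of the knockout library, 12.2 and 32.2, lay above the 90th percentiles of late spermatocyte-like cells (8.6 and 21) but under those of somatic cells (47 and 144.6). Tnp1 came before Prm1 in 30.5% of discordant heterozygous and 60.6% of discordant knockout cells at this threshold. Splitting the cells between bin 5 and bin 6, chosen after these values were seen, separated both ends of the order. In bins 1 to 5, 185 heterozygous spermatids were over the threshold for Tnp1 and not Prm1 and 22 were over it for Prm1 and not Tnp1, so Tnp1 led in 89.4% (84.35 to 93.2). In the knockout library these counts were 653 and 47, or 93.3% (91.2 to 95.03). Tnp1 led Tnp2 in 58.6% (51.0 to 65.8) of discordant heterozygous and 82.0% (78.0 to 85.5) of discordant knockout cells. Cells of 1 library are not replicates, and these intervals say nothing about other animals.

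In bins 6 to 10 the relation turned over: hardly any spermatid had Tnp1 without Prm1 (2 heterozygous and 0 knockout cells), and many had Prm1 without Tnp1. The latter numbered 405 of 2181 heterozygous cells, 18.6% (17.0 to 20.3), and 377 of 3118 knockout cells, 12.1% (10.97 to 13.3). Their median Prm1 was 311 UMIs in the heterozygous and 160 in the knockout library, against 639 and 329 in cells with both mRNAs. Tnp2, which did not enter the choice, had a median of 22 against 355 in the heterozygous and 10 against 209 in the knockout library. These low medians were still above the somatic ones of 12 and 5. Prm3 was far closer, with 26 against 34 and 18 against 21 UMIs, and Prm2 in the heterozygous library had 226 against 247. The same cells were shallower, with a median of 4049 against 6606 UMIs in the heterozygous and 3095 against 4579 in the knockout library, and the part of depth in their number was not tested. Among all spermatids of bins 6 to 10, the 90th percentile was 34.4-fold over the 10th for Tnp1 and 28.2-fold for Tnp2 in the heterozygous library, but 4.25-fold for Prm1 and 3.18-fold for Prm3. The knockout library gave 39.9, 24.0, 3.99 and 3.73-fold.

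A second order, diffusion pseudotime computed without the protamine and transition protein genes, gave lower transition protein levels in its last bins. It ranked the ordered spermatids of both libraries much like the marker ratio (Spearman's rho 0.862, a description across cells). In UMIs per cell, all 4 genes had their highest mean in bin 7 of this order in both libraries. In bin 10 of the heterozygous library Tnp1 was at 66.4% and Tnp2 at 59.1% of that mean, while Prm1 was at 86.0% and Prm3 at 85.9%. In the knockout library Tnp1 was at 53.1%, Tnp2 at 46.9%, Prm1 at 75.6% and Prm3 at 78.5%. The cells' median total UMIs went from 6475 to 5223 between those bins in the heterozygous and from 4412 to 3726 in the knockout library. On the CPM scale Tnp1 and Tnp2 also had their maximum in bin 7 of both libraries, but Prm1 and Prm3 had theirs later. Heterozygous Prm1 stood at 91955 CPM in bin 7 and was highest in bin 10, at 98482. Knockout Prm1 was highest in bin 9, at 79094 CPM. Prm3 was highest in bin 9 of both libraries, at 5554 and 5208 CPM. The 10th percentile of Tnp1 passed from 76.1 UMIs in bin 5 to 10 in bin 10 of the heterozygous library, about the somatic level, while that of Prm1 was 153 in bin 5 and 174 in bin 10. On this order 50% of the maximum was reached by Prm3 at 30.2%, Tnp1 at 39.3%, Tnp2 at 39.7% and Prm1 at 40.8% in the heterozygous library. The knockout values were 28.1%, 40.2%, 40.2% and 42.0%.

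**Figure D4:**
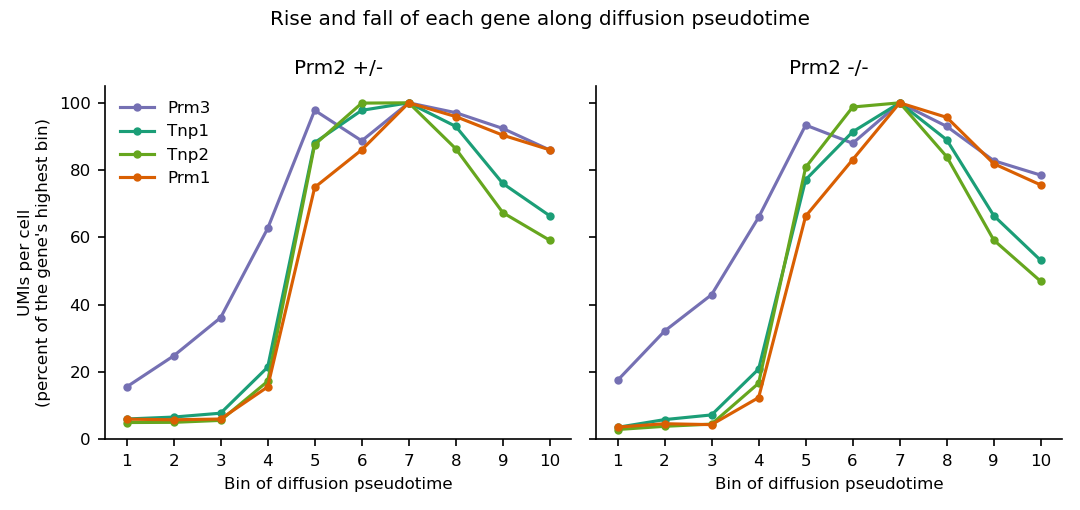
UMIs per cell of each gene as a percent of its own highest bin, along 10 bins of diffusion pseudotime, in the Prm2 +/- (left) and Prm2 -/- (right) library. After the common maximum of UMIs per cell in bin 7, Tnp2 ends at 59.1% and 46.9% and Tnp1 at 66.4% and 53.1%. Prm1 (86.0% and 75.6%) and Prm3 (85.9% and 78.5%) end higher. On the CPM scale, not drawn, the maxima of Prm1 and Prm3 come after bin 7.

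The comparison between genotypes asks whether loss of Prm2 comes with another level of its companions. Heterozygous spermatids of bin 10 held Prm1 at 101287 CPM and knockout ones at 84107 CPM, which puts the log2 of knockout over heterozygous at -0.27 (-0.28 to -0.26). Tnp1, on another chromosome, stood at 34495 and 29417 CPM, or -0.23 on the same log2 scale (-0.25 to -0.21), and Tnp2 at 44076 and 37962 CPM, -0.22 (-0.23 to -0.20). Prm3, whose gene borders Prm2, was nearest to no difference with 5644 and 5417 CPM, -0.06 (-0.10 to -0.02). None of the 4 passed a 2-fold difference, which 1.04% of 2108 genes did downward and 5.03% upward in that bin. The median of the 4 was -0.22, beside 0.17 for all genes compared. Scaling by edgeR's TMM factors shifted every log2 ratio in this bin by -0.47 and put the median of the members at -0.69, and UMIs per cell put it at -0.64. The sign of all 4 was negative on each of these scales. Late spermatids of the 2 libraries mostly fell in different clusters. In the cluster of 1873 heterozygous and 126 knockout cells, all 4 medians were lower in the knockout library (Tnp1 229 and 135 UMIs). In that of 114 and 2273 cells, Tnp1 (34 and 126) and Tnp2 (67.5 and 166) were higher in the knockout. Prm1 (418 and 304) and Prm3 (25 and 20) were lower. The part of cluster make-up in the ratios was not tested. With 1 library per genotype, these gaps cannot be told apart from differences between 2 preparations.

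In bins 3 to 5 the 2 orders gave opposite signs for all 4 genes, whereas in bin 1 the signs were the same. By marker ratio, log2 ratios in bin 3 were 1.09 for Tnp1, 1.29 for Tnp2, 0.65 for Prm1 and 0.69 for Prm3, higher in the knockout library. By pseudotime the bin 3 values were -0.68, -0.88, -1.20 and -0.26. The bins were not matched in the same way. A spermatid cluster with intermediate member levels was chosen after its values were seen. It had a median marker ratio of 0.67 in the heterozygous and 0.19 in the knockout library, and a median pseudotime of 0.44 in both. Clusters and pseudotime were computed from the same principal components, so cells of 1 cluster lie close in pseudotime by construction. The cluster therefore cannot show which order matches the libraries better. Within that cluster the median UMIs per cell were 83.5 and 58 for Tnp1, 101 and 74 for Tnp2, 140.5 and 88 for Prm1 and 30 and 18 for Prm3. Tnp1, Tnp2 and Prm1 reached 50% of their maximum earlier in the knockout library on the marker order but not on pseudotime (40.2%, 40.2% and 42.0% against 39.3%, 39.7% and 40.8%). Prm3 was earlier in the knockout on both, at 18.3% against 36.7% and at 28.1% against 30.2%. Free RNA also differed, with 24 against 9 Prm1 UMIs in the median somatic cell, and its part in the ratios of the early bins was not tested. In bin 1 by pseudotime Prm3, the member with the lowest somatic level, had a log2 ratio of 0.03 (-0.05 to 0.11), against -1.10 for Prm1.

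**Figure D5:**
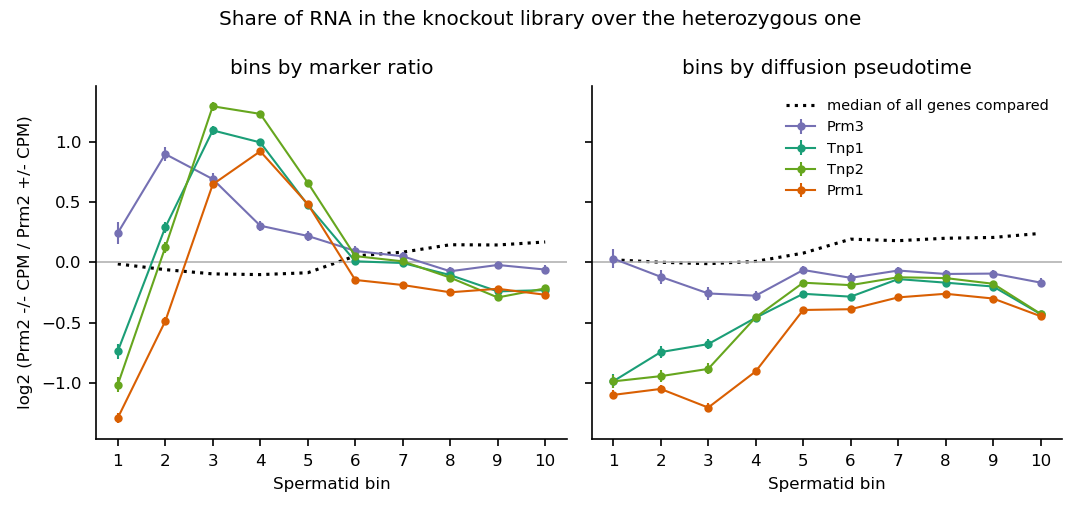
Log2 ratio of CPM in the Prm2 -/- over the Prm2 +/- library for Prm3, Tnp1, Tnp2 and Prm1 in 10 spermatid bins, set by marker ratio (left) or by diffusion pseudotime (right), with 95% intervals for counting error; the dotted line is the median of all genes compared. In bins 3 to 5 the members lie above 0 on the left and below it on the right, and in bin 10 all 4 lie between -0.06 and -0.27 on the left and between -0.17 and -0.45 on the right.

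Genes known to act on these genes or their mRNAs were placed by the stage of their highest CPM. Of all genes with at least 50 CPM in a germ cell stage, 77.4% of 7475 (heterozygous) and 79.8% of 7365 (knockout) had it before bin 4, so a count of listed genes before bin 4 near that share says nothing particular about them. Of 10 transcription genes on the list, 9 reached 50 CPM in a germ cell stage, of which 6 peaked before bin 4 and 3 in bins 4 to 6 in each library. Crem peaked at 546 CPM in bin 2 of the heterozygous and at 591 CPM in bin 1 of the knockout library, and stood at 352 and 254 CPM in bin 5, where the members were climbing. Fhl5, whose product ACT is a partner of CREM, peaked in bin 5 at 832 and 911 CPM. Camk4, a kinase linked to protamine deposition in mice, peaked in bin 4 at 171 and 176 CPM. All 8 storage and translation genes that were listed peaked before bin 4 in both libraries. Ybx2 (MSY2), which binds stored protamine mRNA, had its maximum of 860 and 1507 CPM in late spermatocyte-like cells. Among the genes of histone removal and linker histones that reached 50 CPM, 7 of 11 heterozygous and 6 of 10 knockout ones peaked before bin 4, 2 in bins 4 to 6 and 2 later. Of those from bin 4 on, Hils1, a spermatid linker histone, peaked in bin 6 at 2884 and 2036 CPM. H1fnt, another one, peaked in bin 9 at 2125 and 2106 CPM, and Tssk6 in bin 10 at 2491 and 2282 CPM. These are shares of a cell's RNA, which the members themselves dilute by up to 18.6%.

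Several other genes had nearly the same course. Across 26 points (3 earlier germ cell stages and 10 spermatid bins of each library), the log2(CPM + 1) profile closest to Prm1 among 6781 genes was that of Ttc24 (Pearson's r 0.998), followed by the kallikreins Klk1b26 and Klk1b8, which share long sequence stretches with other kallikreins (both 0.996). Ttc24 reached 50% of its maximum at 47.5% of the heterozygous and 44.1% of the knockout order, beside 47.7% and 41.8% for Prm1. Prm3 was closest to Ak1, an adenylate kinase (0.998), Vsig1 and Iqcf3 (both 0.994). Ak1 reached 50% at 35.2% and 15.6% of the order, beside 36.7% and 18.3% for Prm3. It was picked for its likeness to Prm3 over these same bins, so a near position follows from the choice. Tnp1 was closest to Tex37 (0.996), H2al2a, a histone variant of condensing spermatids, and Spata32 (both 0.995). Tnp2 was closest to Oxct2a (0.996), Cstl1 and Cdc34 (both 0.995). The points share libraries and stages, so these correlations describe likeness only.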

How the data were processed

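The values are counts of UMIs per gene and cell that the authors deposited. Per the file headers the matrices are output of Cell Ranger 7.1.0. Seurat 4.1.0, whose role is not given, and the build mm10 are named in the submitters' processing notes. Members and gene lists were chosen with earlier results of these data known. A barcode needed at least 500 UMIs, 250 genes and no more than 20% mitochondrial UMIs. Doublets called by Scrublet (scanpy 1.11.5) were removed. Both libraries were clustered together (2000 variable genes, 30 principal components, Leiden resolution 1, leidenalg 0.10.2) without Prm1, Prm2, Prm3, Tnp1 and Tnp2. A cluster took the marker list with the highest mean z score if that was at least 0.5 and led the next by 0.25. This naming rule and the minimum of 2000 UMIs for ordered spermatids were chosen after seeing the data. The order was log2 of late over early spermatid marker UMIs, each plus 0.5, cut at deciles in which both libraries weighed equally. UMIs were summed per stage, with exact Poisson or Clopper-Pearson binomial intervals (scipy 1.17.1), which cover counting error only. No p-value was computed, since cells are not replicates. TMM factors came from edgeR 4.0.16, as an alternative scale. The binning, onset and position steps were tested on simulated data. Genes named are the 4 members, Prm2, a list of regulators and partners, and the 3 genes most correlated with each member among those with at least 50 CPM in a stage, leaving out predicted and clone-based names.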

Additional observations from a re-analysis of the deposited data

How the results depend on the processing

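Leads are in percentage points of the spermatid order; in each group below they are Prm3 over Tnp1 and Tnp1 over Prm1 in the heterozygous library, then the same in the knockout library. They were 7.03, 3.96, 18.3 and 5.22 as reported. Pseudotime gave 9.05, 1.53, 12.1 and 1.80. The first alternate set of markers gave 5.77, 3.21, 24.6 and 4.16, and the second gave 11.2, 1.83, 20.0 and 3.52. With 6 bins they were 10.5, 3.36, 16.4 and 6.08, and at 25% of the maximum 17.8, 2.33, 21.1 and 6.64. CPM gave 1.68, 2.14, 0.749 and 4.38. Keeping doublets gave 8.50, 2.91, 16.5 and 3.38. Thinning to 2000 UMIs gave 0.696, 1.86, -0.190 and 3.80. The next alternatives were added after seeing the data. Spermatids from 500 UMIs gave -0.911, 2.03, -1.61 and 4.56, and a higher minimum 9.32, 2.53, 12.9 and 6.59. Ranks within each library gave 8.41, 2.15, 17.1 and 6.001. Subtracting the somatic median gave 14.4, 2.46, 22.0 and 6.76 at 25% of the maximum, and 26.7, 4.18, 11.5 and 8.06 at 10%. The latter on pseudotime gave 24.0, 3.66, 23.6 and 6.01. Where a lead turned, the cause was not tested.

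The share of discordant cells with Tnp1 before Tnp2 crossed 50% in the heterozygous library, to 32.8% at the 95th somatic percentile, 31.8% at 10% of the own median and 12.4% with earlier germ cells as background. In the knockout library it crossed to 62.9% at 10% of the own median and 57.7% with earlier germ cells. Tnp1 before Prm1 in the knockout crossed to 56.3% and 60.6% at the first pair of these thresholds, and Tnp2 before Prm1 to 29.4% with earlier germ cells. The median log2 knockout over heterozygous ratio in bin 10 was -0.22 as reported. It was -0.35 with the 5 protamine and transition protein genes left out of the total, -0.64 in UMIs per cell, -0.69 with TMM, and, added later, -0.43 by pseudotime, -0.14 by ranks and -0.63 in UMIs per cell with somatic medians subtracted. No paired analysis was possible because each genotype had 1 library.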
